A study of Homo sapiens with 6 samples.

Results

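Eph receptors and their ephrin ligands were followed in LS180, a cell line grown from a human colorectal adenocarcinoma. The members were taken by gene symbol from the platform annotation. Of 10 symbols, 9 had a listed probe set, out of 14812 named genes. They were the receptor genes EPHA1, EPHA2, EPHA4, EPHB3 and EPHB4 and the ligand genes EFNA1, EFNA4, EFNB1 and EFNB2. The tenth, EPHB2, has no listed probe set and was not analysed here. The other 12 genes of the family measured on the arrays are described beside them, which gives 21 of 22 family genes in all. Each gene had 1 probe set.

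The study measured total RNA with Affymetrix arrays in cells transfected with siRNA to CTNNB1 (the beta-catenin gene), to MYC (a transcription factor gene) or to MYU, a long non-coding RNA that the annotation lists under VPS9D1-AS1. A knockdown is represented by 1 array and is matched by 1 array of control siRNA cells, whose title names that knockdown. All 6 samples come from the same cell line, and the labels give no time after transfection and no other agent. One label of the CTNNB1 array, its treatment tag, reads CTNNB2, whereas its title and its source both read CTNNB1.

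The deposited values had been centred within each pair of arrays. A probe set therefore keeps its difference, knockdown minus control, and no level. Such differences are given below on a log2 scale, the base being an assumption. A single array per group leaves no replicate and no test, so "higher" and "lower" describe these arrays, and a gene at least 2-fold apart is one whose difference is at least 1 in size. Precision is limited by the number of arrays. As a measure of scatter, the median standard deviation between probe sets of the same gene, over 651 genes with several, was 0.10 for the CTNNB1 knockdown, 0.08 for MYC and 0.06 for MYU. This scatter lies within an array and does not cover differences between cultures. The controls matched to CTNNB1 and to MYC share a number in their titles, and it is not known whether they are the same sample. Values of these comparisons are therefore set side by side without a measure of their likeness. The control matched to MYU carries a different number in its title. What differs between the MYU pair and the other pairs therefore cannot be told apart from a difference between controls.

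Eph receptors form the largest family of receptor tyrosine kinases and are bound by ephrins on the surface of neighbouring cells. Ephrin-A ligands are held in the membrane by a lipid anchor, whereas ephrin-B ligands cross it and signal back into their own cell through a cytoplasmic tail. EphA receptors mainly bind ephrin-A ligands and EphB receptors mainly ephrin-B ligands. In mouse intestine Wnt signalling through beta-catenin is known to keep EphB receptors high at the crypt base, while ephrin-B ligands are found toward the crypt mouth, and this opposed arrangement holds cells in their positions.

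The bases upstream of the annotated start are printed for the 4 members that were at least 2-fold apart in the CTNNB1 pair, since these genes carry the main differences described below. Each window holds the 250 bases before the start, on the gene's own strand, from RefSeq with build GRCh38.p14. Capitals mark CTTTGA, the core recognised by TCF and LEF factors, through which beta-catenin acts. CACGTG, the E-box recognised by MYC and MAX, was searched as well. Both strands were searched, and the letters of these motifs do not overlap each other. The windows are EPHB3 at chr3:184561535-184561784 on the plus strand, EFNB1 at chrX:68828771-68829020 on the plus strand, EFNB2 at chr13:106535663-106535912 on the minus strand and EPHA2 at chr1:16156070-16156319 on the minus strand.
EPHB3: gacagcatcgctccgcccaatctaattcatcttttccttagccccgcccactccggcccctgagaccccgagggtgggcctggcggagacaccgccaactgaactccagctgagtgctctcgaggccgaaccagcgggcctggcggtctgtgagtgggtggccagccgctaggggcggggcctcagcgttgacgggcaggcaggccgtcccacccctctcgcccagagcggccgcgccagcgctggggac
EFNB1: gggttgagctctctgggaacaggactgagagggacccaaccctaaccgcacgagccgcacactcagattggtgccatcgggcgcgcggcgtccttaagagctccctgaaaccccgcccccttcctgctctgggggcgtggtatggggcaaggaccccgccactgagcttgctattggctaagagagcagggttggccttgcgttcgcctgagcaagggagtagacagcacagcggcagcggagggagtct
EFNB2: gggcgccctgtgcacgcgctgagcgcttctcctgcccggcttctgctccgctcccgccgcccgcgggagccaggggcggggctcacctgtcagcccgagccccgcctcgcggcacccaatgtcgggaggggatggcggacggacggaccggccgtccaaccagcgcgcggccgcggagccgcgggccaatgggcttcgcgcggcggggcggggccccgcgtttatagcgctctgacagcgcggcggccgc
EPHA2: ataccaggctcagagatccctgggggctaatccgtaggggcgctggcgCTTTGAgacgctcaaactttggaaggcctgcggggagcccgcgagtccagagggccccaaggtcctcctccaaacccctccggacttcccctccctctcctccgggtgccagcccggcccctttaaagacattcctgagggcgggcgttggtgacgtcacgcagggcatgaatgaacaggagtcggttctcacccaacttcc

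CTTTGA was found in the EPHA2 window, where it begins 202 bases before the start on the gene's strand, and not in the windows of EPHB3, EFNB1 or EFNB2. CACGTG was in none of these 4 windows. Of 10 member windows in the table, EPHB2 included, 1 held CTTTGA and 0 held CACGTG. Over 15842 protein-coding genes with a window in this table, 9.58% held CTTTGA and 7.84% held CACGTG in the same 250 bases. GC content was 70.0% for EPHB3, 63.6% for EFNB1, 78.4% for EFNB2 and 63.2% for EPHA2, with a median of 62.4% over those genes. A match shows only that the letters are present.

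The CTNNB1 pair asked which members differ when beta-catenin is targeted. Both ephrin-B ligand genes among the members were higher in the knockdown array, EFNB2 by 4.34-fold and EFNB1 by 2.92-fold. EPHB3, a receptor for these ligands, was 2.76-fold lower. EPHA2, a receptor for ephrin-A1, was 2.46-fold higher. In all 4 of the 9 members passed 2-fold, with 3 above 0 and 1 below, where the share of the 14812 named genes past this fold was 6.94%, made up of 2.80% above and 4.14% below. The members were listed with earlier results of these arrays known. Of the 12 family genes outside the members 1 was 2-fold apart, or 8.33%, which is near the share of all genes.

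CTNNB1 itself has no listed probe set, so this knockdown has no direct check on its target. MYC differed by -2.38, -1.18 and 0.04 for the CTNNB1, MYC and MYU knockdowns, and VPS9D1-AS1 by -0.53, -0.24 and -0.50. The MYU transcript thus fell short of 1.5-fold lower in its own knockdown, and was no lower there than with CTNNB1 siRNA.

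EFNB2 encodes ephrin-B2, a transmembrane ligand that is the preferred partner of EphB4. Its centred log2 value was 1.06 in the CTNNB1 siRNA array and -1.06 in the control array, a difference of 2.12. Only 0.304% of all genes had a higher difference in this pair. EFNB1 encodes ephrin-B1, a ligand of EphB2 and EphB3. Its centred value was 0.77 in the CTNNB1 siRNA array and -0.77 in the control array, a difference of 1.55, with 0.898% of genes above it. The third ephrin-B gene, EFNB3, stood at -0.13, so the ephrin-B genes did not share 1 direction.

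EPHB3 had a centred value of -0.73 in the CTNNB1 siRNA array and 0.73 in the control array, a difference of -1.47. Of all genes 1.51% were lower still. EPHB4, the receptor that prefers ephrin-B2, had centred values of -0.28 and 0.28 in the knockdown and control arrays, a difference of -0.56 that falls short of 1.5-fold. The remaining EphB genes lay above 0, with EPHB6, whose product lacks kinase activity, at 0.59 and EPHB1 at 0.18. The 4 measured EphB genes were thus split, with the members EPHB3 and EPHB4 below 0 and EPHB6 and EPHB1 above it.

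Among EphA receptors EPHA2 stood apart. Its centred value was 0.65 in the CTNNB1 siRNA array and -0.65 in the control array, a difference of 1.30 with 1.49% of genes above it. The other 8 EphA genes lay between -0.03 for EPHA4, a receptor that binds ligands of both classes, and 0.15 for EPHA8. EPHA1 had a difference of 0.09. Of the 9 EphA genes 8 lay above 0, with a median of 0.08, so most of the class differed by less than the scatter between probe sets of the same gene. Of all 14812 named genes 7240 lay above 0 and 7236 below.

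Of the ephrin-A ligands EFNA1, the ligand of EPHA2, had a difference of 0.59, or 1.51-fold. EFNA4 stood at -0.07. Outside the members EFNA2 was 2.49-fold higher, at 1.32, EFNA3 had a difference of 0.14 and EFNA5 of -0.56. EFNA4 and EFNA3 are next to each other on chromosome 1 and share annotated readthrough transcripts, so signal from such transcripts cannot be told apart from that of the separate genes.

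**Figure D1:**
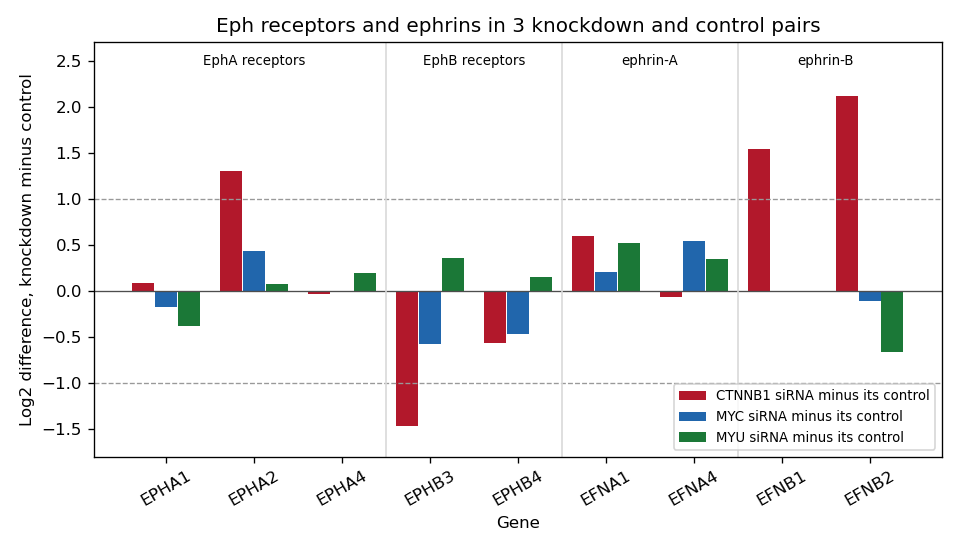
Log2 differences (vertical axis, knockdown minus control) of the 9 members for the CTNNB1, MYC and MYU knockdowns, with 1 bar per pair of arrays, no error bars because each group has 1 array, and dashed lines at a 2-fold difference. EFNB2 at 2.12, EFNB1 at 1.55 and EPHA2 at 1.30 pass the upper line and EPHB3 at -1.47 the lower line, all with CTNNB1 siRNA.

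In the MYC pair, which asked the same of MYC, no member was 2-fold apart, where 0.857% of all genes were. None reached 1.5-fold either, against 5.79% of genes. The member nearest to that threshold was EPHB3, with a centred value of -0.29 in the MYC siRNA array and 0.29 in the control array (difference -0.58). EPHB4 had a difference of -0.47, and 5.75% of genes were lower. EFNA4, an ephrin-A ligand, was at 0.54 and EPHA2 at 0.43.

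The ephrin-B ligand genes EFNB1 and EFNB2, the highest members in the CTNNB1 pair, lay close to 0 with MYC siRNA. EFNB2 had a difference of -0.11, against 2.12 with CTNNB1 siRNA, and EFNB1 of -0.02, against 1.55. For EPHB4 the differences were nearer to each other, -0.47 with MYC siRNA and -0.56 with CTNNB1 siRNA. EFNA1 stood at 0.20, EPHA1 at -0.18 and EPHA4 at exactly 0, as were 2.67% of all genes in this pair. Whether a member differed between knockdowns was not tested, since each has 1 array.

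The MYU pair asked which members differ when the long non-coding RNA is targeted. No member was 2-fold apart, where 0.155% of genes were. At 1.5-fold 1 of 9 members was apart, against 1.88% of genes. This was EFNB2, with a centred value of -0.33 in the MYU siRNA array and 0.33 in the control array, a difference of -0.66 or 1.58-fold lower. Only 0.736% of genes were lower in this pair. The same gene was 4.34-fold higher with CTNNB1 siRNA, so its differences have opposite signs in these pairs.

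EFNA1 was the highest member with MYU siRNA, with a centred value of 0.26 in the knockdown array and -0.26 in the control array, a difference of 0.52 that 1.04% of genes exceeded. The EphB receptor EPHB3 stood at 0.36 and EPHB4 at 0.15, both on the other side of 0 from their values with CTNNB1 and MYC siRNA. EFNA4 had a difference of 0.35 and EPHA1 of -0.38. EPHA4 stood at 0.19, EPHA2 at 0.07 and EFNB1 at -0.01.

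Differences in the MYU pair went with gene length. Over 11910 protein-coding genes, all read from the same arrays, Spearman's rho with length was -0.17, whereas it was -0.01 for the CTNNB1 knockdown and 0.02 for MYC. With genes split by length into 4 groups of equal size, the median difference was 0.02 in the group of shortest genes and -0.02 in the group of longest genes. EFNB2 spans 45.9 kb and lies in group 3 counted from the shortest, while EFNA1 at 7.02 kb and EFNA4 at 5.81 kb lie in group 1. Other members went against this order. EPHA4, 156 kb long and in group 4, stood at 0.19, and EPHA1, 17.7 kb long and in group 2, at -0.38. The part of length in these values was not tested.

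Over the 9 members the median difference was 0.09 with CTNNB1 siRNA, -0.02 with MYC siRNA and 0.15 with MYU siRNA, where the median of all named genes was 0 in each. The family did not move as a block in any pair. In the CTNNB1 pair 5 members lay above 0 and 4 below, spread from -1.47 to 2.12. The spread from lowest to highest was narrower in the other pairs, from -0.58 to 0.54 with MYC siRNA and from -0.66 to 0.52 with MYU siRNA. Over all genes the CTNNB1 pair was also the widest, with standard deviations of 0.51, 0.28 and 0.20 for the CTNNB1, MYC and MYU pairs.

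**Figure D2:**
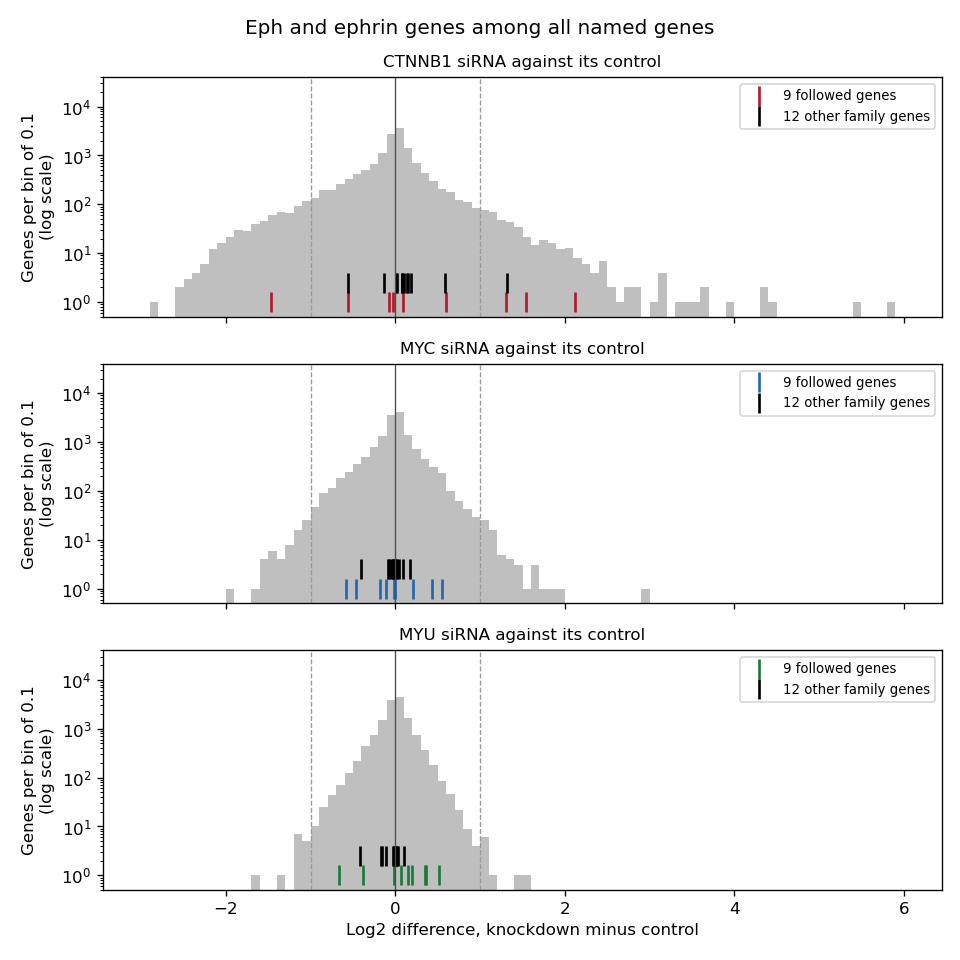
Histograms of the log2 difference (horizontal axis, knockdown minus control) over 14812 named genes in bins of 0.1, with a logarithmic count axis and a panel for each pair. Ticks mark the 9 members, in colour, and the 12 other family genes, in black. Members reach from -1.47 to 2.12 in the CTNNB1 panel and stay within 0.7 of 0 in the MYC and MYU panels, and dashed lines mark 2-fold.

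Among the 12 other family genes the one past 2-fold in the CTNNB1 pair was EFNA2 at 1.32 (8.33%, beside 6.94% of all genes). None was 2-fold apart in the MYC or MYU pair, where 0.857% and 0.155% of all genes were. EFNA2 encodes an ephrin-A ligand, and its differences were -0.07 with MYC siRNA and 0.10 with MYU siRNA. EFNA5, another ephrin-A ligand, had differences of -0.56, -0.41 and -0.42 for the CTNNB1, MYC and MYU knockdowns. EPHB6 had 0.59, 0.17 and -0.17. Of the 21 family genes 10 stayed within 0.2 of 0 in all 3 pairs, namely EPHA3, EPHA4, EPHA5, EPHA6, EPHA7, EPHA8, EPHA10, EPHB1, EFNA3 and EFNB3. Their levels are not known, so a gene near 0 may be unchanged or not expressed. The share of all genes within 0.2 of 0 in all 3 pairs was not counted, so these 10 do not set the family apart.

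EPHB3 was set beside genes known as Wnt and beta-catenin targets, 20 of 24 listed being measured. In the CTNNB1 pair 8 of the 20 were at least 2-fold lower, beside 4.14% of all genes, and 1, the Wnt antagonist DKK1, was higher, beside 2.80%. Ordered together with these from the lowest, EPHB3 came 8th of 21. It lay just above the ubiquitin ligase genes ZNRF3 at -1.53 and RNF43 at -1.48, which remove Wnt receptors, and below the growth factor gene BMP4 at -1.13. The lowest were MYC, the feedback gene AXIN2 at -2.23, the adhesion receptor CD44 at -2.13, the stem cell receptor LGR5 at -2.09 and CDCA7 at -2.05. DKK1 was at 1.69, below EFNB2.

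In the MYC pair 3 of these 20 targets were 2-fold apart, beside 0.857% of all genes. They were MYC at -1.18, which is the target of the siRNA itself, CDCA7 at -1.32 and DKK1 at 1.74. EPHB3 at -0.58 lay beside CD44 at -0.62 and CCND1, a cyclin of the G1 phase, at -0.59. In the MYU pair none was 2-fold apart, beside 0.155% of all genes. The median over the 20 targets was -0.73, -0.40 and 0.04 for the CTNNB1, MYC and MYU knockdowns. These genes were listed with earlier results known, and their counts are a description.

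**Figure D3:**
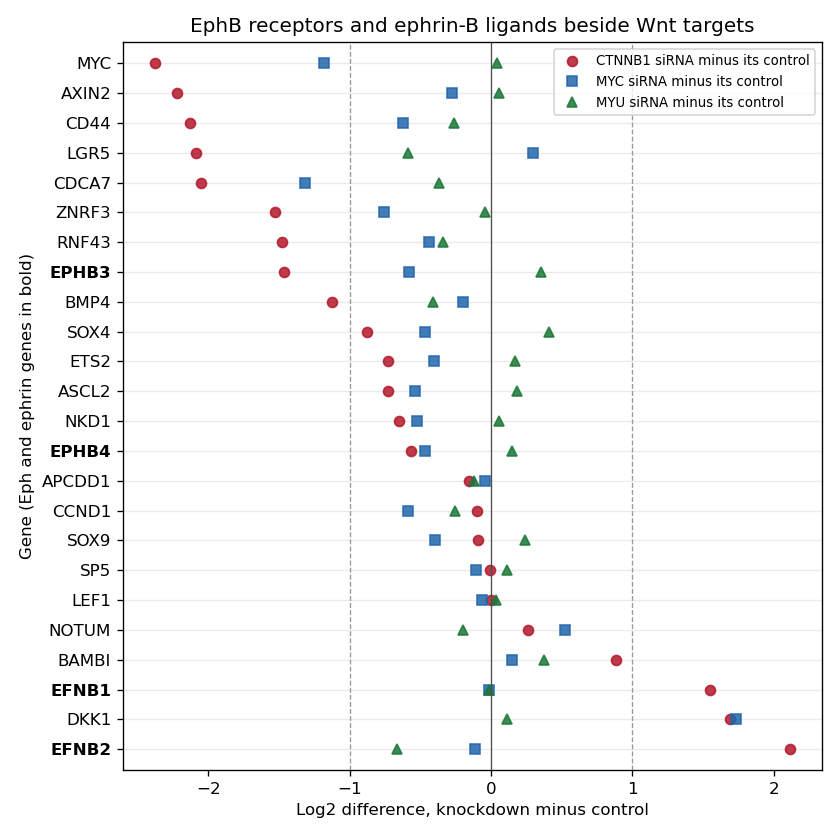
Log2 differences (horizontal axis, knockdown minus control) of 20 Wnt targets and, in bold, the EphB receptors EPHB3 and EPHB4 and the ephrin-B ligands EFNB1 and EFNB2, ordered by the CTNNB1 pair. Circles, squares and triangles are the CTNNB1, MYC and MYU pairs, each point is 1 pair of arrays, and dashed lines mark 2-fold. EPHB3 at -1.47 falls among the lowest targets, and EFNB1 at 1.55 and EFNB2 at 2.12 lie near DKK1 at 1.69.

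The genes whose pattern over the 3 pairs came closest to that of EPHB3 were sought among 11909 other protein-coding genes by Euclidean distance of the 3 differences. The nearest was PRPF4, a splicing factor gene, at a distance of 0.0737, which in the MYC and MYU pairs differed by -0.65 and 0.35. Next came ZNF90, a zinc finger gene, at 0.0835, APEX1, a DNA repair endonuclease gene (-1.56, -0.56 and 0.37 for CTNNB1, MYC and MYU siRNA), at 0.0923, CEP20 at 0.156 and the nuclear import gene IPO7 at 0.168. The likeness rests on 3 values per gene.

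Genes that carry Eph and ephrin signals were followed from a list of 90, of which 61 were measured. In the CTNNB1 pair 3 of these were 2-fold higher and 0 lower, or 4.92%, beside 2.80% of all genes higher and 6.94% in either direction. At 1.5-fold there were 10 of 61, or 16.4%, beside 16.2% of all genes in either direction. All 10 were higher, and 6.44% of all genes were 1.5-fold higher. The list's median was 0.11 and that of all genes 0, with 40 of its genes above 0 and 20 below. Among the 14812 named genes 7240 lay above 0 and 7236 below.

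The highest of the list with CTNNB1 siRNA was RRAS at 2.14, a small GTPase of integrin adhesion that EphB2 is known to phosphorylate. PARD6B, a polarity scaffold, stood at 1.25, and ITSN1, an exchange factor for CDC42 that works with EphB receptors, at 1.21. NGEF, which encodes the exchange factor ephexin 1 downstream of EphA4, was at 0.76. RND3 was at 0.82 and TJP1, a tight junction scaffold, at 0.89. The measured kinases of the list were within 1.5-fold in all 9 cases, where 16.2% of all genes were not. SRC was at 0.39 and LIMK1, a kinase that acts on cofilin, at -0.58.

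In the MYC and MYU pairs 0 of 61 signalling genes were 2-fold apart, beside 0.857% and 0.155% of all genes. The largest differences with MYC siRNA were those of YES1, a SRC family kinase, at -0.79, the shedding protease ADAM17 at -0.77 and NCSTN, a gamma-secretase subunit, at 0.71. With MYU siRNA they were NCSTN at -0.47, PARD6B at 0.47 and RRAS at -0.46. RRAS therefore had differences of 2.14 in the CTNNB1 pair and -0.46 in the MYU pair.

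Proteases that cut Eph receptors and ephrins were also on the list. ADAM10, which sheds ephrins and is known to act on EphB and ephrin-B contacts, had differences of 0.25, 0.35 and 0.31 for the CTNNB1, MYC and MYU knockdowns. Gamma-secretase cuts the remaining membrane stubs, and 5 of its 6 listed subunit genes were measured. Their median was 0.56 with CTNNB1, 0.55 with MYC and 0.06 with MYU siRNA. In each pair 0 of 5 were at 2-fold, beside 6.94%, 0.857% and 0.155% of all genes. APH1A stood at 0.79, 0.59 and 0.30 and PSENEN at 0.56, 0.55 and 0.38. The others did not share this, with PSEN2 at -0.01, 0.10 and 0.06, APH1B at 0.12, 0.15 and -0.01 and NCSTN at 0.75, 0.71 and -0.47.

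**Figure D4:**
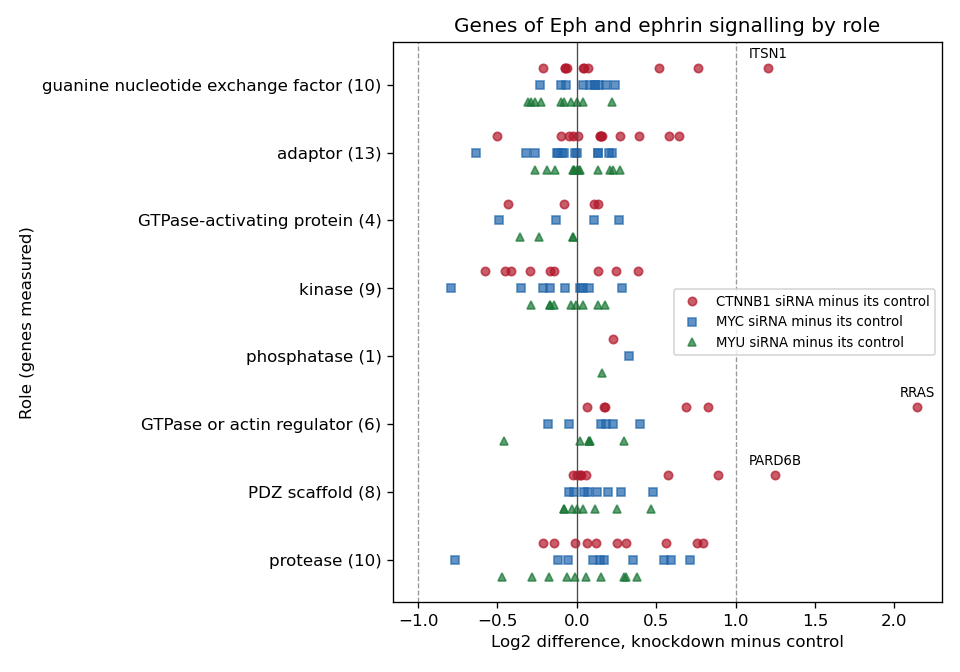
Log2 differences (horizontal axis, knockdown minus control) of 61 genes of Eph and ephrin signalling, grouped by role with the number measured in brackets. Circles, squares and triangles are the CTNNB1, MYC and MYU pairs, each point is 1 gene in 1 pair of arrays, and dashed lines mark 2-fold. RRAS at 2.14, PARD6B at 1.25 and ITSN1 at 1.21, all in the CTNNB1 pair, are the points beyond those lines.

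Markers were checked for the labelled cell type and for others in which Eph genes are active. Of 10 measured genes of colon epithelium 5 were 2-fold higher in the CTNNB1 pair and 0 lower, beside 2.80% and 4.14% of all genes. They were KRT20 at 4.39, KRT19 at 2.09, TFF3 at 1.89, VIL1 at 1.06 and GPA33 at 1.02. CDX2, an intestinal transcription factor gene, stood at -0.42. KRT20 at 1.16 was also 2-fold higher in the MYC pair. In the MYU pair KRT20 stood at -0.73 and GPA33 at -0.80, the 2 of 10 past 1.5-fold there, beside 1.88% of all genes. Both had opposite signs in the CTNNB1 and MYU pairs, as EFNB2 had. KRT19, TFF3 and VIL1 stayed above 0 in the MYU pair, at 0.08, 0.32 and 0.05. Without levels these values cannot show that a marker is present or absent. Of 5 endothelial markers, a cell type known for EFNB2 and EPHB4, 0 were 2-fold apart in any pair. The shares of all genes were 6.94%, 0.857% and 0.155% for CTNNB1, MYC and MYU siRNA. The range of these endothelial markers in the CTNNB1 pair was -0.21 to 0.25. Of 4 fibroblast markers LUM was higher at 2.78 in the CTNNB1 pair while the other 3 lay between -0.04 and 0.01. Of 4 leukocyte markers CD68, also a lysosomal protein gene of other cells, was higher at 2.65 in the CTNNB1 pair. The other 3 lay between -0.23 and 0.05. In the MYU pair LYZ stood at 0.74, the 1 of 4 leukocyte markers past 1.5-fold there, beside 1.88% of all genes. The part of these differences in the values of the ephrin genes was not tested. Less RNA per cell and fewer cells expressing a gene cannot be told apart in bulk RNA.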

How the data were processed

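Total RNA from 6 LS180 samples was extracted with TRIsure and labelled with biotin for Affymetrix arrays, per the labels' protocols. The deposited values are log2 expression centred by the authors within each knockdown and control pair, read from the values: within a pair they cancel to within 1e-06. For background correction, normalization and summarisation no source used here gives a method, and the log base, taken as 2, is not stated. Of 44629 probe sets, 15835 have 1 gene symbol, 0 several and 28794 are unlisted. All 15835 identifiers matched the gene table of GRCh38.p14, which gave 14812 genes. A gene's value is the mean difference of its probe sets, knockdown minus control.

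Genes were counted at 2-fold, with 1.5-fold as an alternative. Other alternatives were centring on each pair's median, the probe set nearest to 0 or farthest from it, and the whole family. No test was run, because each group has 1 array. Named were all family genes, the targeted transcripts, listed signalling and Wnt genes at 2-fold (otherwise the 3 farthest from 0), 2-fold markers and the 5 genes nearest to EPHB3 in pattern. Some signalling, Wnt and marker genes below 2-fold were added after their values were seen. The members and lists were chosen with earlier results of these data known. On simulated data of 14812 genes per pair, the code recovered 100% of 200 changed genes with 0 false calls for each knockdown, which checks the code only. Python 3.11.15, numpy 2.4.6, pandas 2.3.3 and matplotlib 3.10.9 were used.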

Additional observations from a re-analysis of the deposited data

Results flagged for a closer look

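EFNB2 was at least 1.5-fold apart in opposite directions in 2 pairs, with a difference of 2.12 in the CTNNB1 pair and -0.66 in the MYU pair. No other measured family gene did this. Among the markers of colon epithelium KRT20, at 4.39 and -0.73, and GPA33, at 1.02 and -0.80, did so in the same pairs. KRT19, TFF3 and VIL1, also 2-fold higher in the CTNNB1 pair, did not, at 0.08, 0.32 and 0.05 in the MYU pair. The part of these markers in the value of EFNB2 was not tested. How many of all genes were apart in opposite directions in 2 pairs was not counted, so these genes cannot be called unusual. In single pairs, 6.44% of all genes were 1.5-fold higher with CTNNB1 siRNA and 1.88% were 1.5-fold apart with MYU siRNA. The difference between these knockdowns was not tested, since each has 1 array and its own control. Those controls carry different numbers in their titles, so the siRNA and the control cannot be told apart here.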

How the results depend on the processing

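Over 78 alternative values of the counts, the medians and the members' differences, at least 38 could not move. For these the pair's median is exactly 0 or the gene has 1 probe set. Of the other 40, 33 stayed within 1.5 times a count or within the scatter between probe sets, 7 moved further and 0 reversed. Each measured Wnt target also has 1 probe set, so its alternatives for that choice, counted among the 33, could not move either. Each of the 7 that moved did so with the lower threshold or another gene list, so these values depend on that choice. At 1.5-fold, signalling genes apart numbered 10 for CTNNB1 siRNA and 5 for MYC siRNA, against 3 and 0 at 2-fold. Wnt targets numbered 14, 6 and 1 for the CTNNB1, MYC and MYU knockdowns, against 9, 3 and 0. Members numbered 1 in the MYU pair, against 0. Of all genes 16.2%, 5.79% and 1.88% were 1.5-fold apart in the CTNNB1, MYC and MYU pairs. At 2-fold these shares were 6.94%, 0.857% and 0.155%. The 5 of 61 signalling genes with MYC siRNA make 8.20%, near the share of all genes. Over all 21 measured family genes, a list added after seeing the data, the median in the MYU pair was 0, against 0.15 for the members. Centring shifted differences by at most 0.00773. Each family gene has 1 probe set, so the choice of probe set could not alter its value.

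No paired analysis was possible because each knockdown has 1 array and 1 control, and the values are already differences of a pair. The mean of all control arrays, a filter on level and limma were not run, since the centred values hold no levels. Expression level, replicate spread, and the response of EPHB2 and CTNNB1 themselves cannot be read from these values.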

Other observations

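Genes next to the members on the chromosome were looked at after the members' values had been seen. Of 16 measured protein-coding neighbours outside the family, 0 were 2-fold apart in any pair. Among all genes 6.94% passed this fold with CTNNB1 siRNA, 0.857% with MYC siRNA and 0.155% with MYU siRNA. At 1.5-fold there was 1 of 16 in the CTNNB1 pair, ARHGEF35 beside EPHA1, at 0.68, where 16.2% of all genes were. EFNB2, at 2.12 with CTNNB1 siRNA, lies between DAOA at 0.02 and ARGLU1 at 0.14. EPHB3, at -1.47, lies between CHRD, a secreted BMP inhibitor gene, at -0.01 and VPS8 at 0.25. EFNB1, at 1.55, lies between STARD8 at -0.04 and EDA at 0.13, and EPHA2, at 1.30, between SRARP at -0.04 and ARHGEF19 at -0.37. The 2-fold differences of these members were thus not shared by the measured genes on either side. Neighbours were taken by order along the chromosome, at any distance. Their levels are not known, so a neighbour near 0 may be unchanged or not expressed. Since few of all genes pass 2-fold, a count of 0 among 16 does not set the neighbours apart from genes elsewhere.

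On chromosome 1 EFNA4, EFNA3 and EFNA1 follow each other, and their values differed. With CTNNB1 siRNA the differences were -0.07, 0.14 and 0.59, with MYC siRNA 0.54, -0.05 and 0.20, and with MYU siRNA 0.35, -0.16 and 0.52. EPHA1-AS1, the antisense RNA next to EPHA1, had differences of 0.08, 0.00 and 0.01 for the CTNNB1, MYC and MYU knockdowns, where EPHA1 had 0.09, -0.18 and -0.38.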
